A study of Mus musculus with 2 samples.

Results

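The genes described here are 10 interferon-gamma induced GTPases of the mouse, chosen by symbol from the 55536 Ensembl genes of the deposited expression table. They are the guanylate-binding protein genes Gbp2, Gbp3, Gbp4, Gbp5, Gbp6, Gbp7 and Gbp9, and the immunity-related GTPase genes Igtp, Irgm1 and Irgm2. All 10 had a row in the table and reads in both libraries. RNA was sequenced from 1 mammary tumor library of an MMTV-PyVT mouse given cyanidin-3-glucoside (C3G), an anthocyanin pigment of berries, and from 1 of an MMTV-PyVT mouse given the solvent dimethyl sulfoxide (DMSO). In both groups the polyoma virus middle T antigen is expressed under the mouse mammary tumor virus promoter, chiefly in mammary epithelium. Dosing started at ductal hyperplasia, and tumors were collected once the burden reached a set limit. The labels used here do not give strain, age, dose or whether the RNA came from 1 or several tumors of a mouse.

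Guanylate-binding proteins (GBPs) are large GTPases that assemble as coats on the vacuoles and surfaces of intracellular bacteria and parasites. Immunity-related GTPases (IRGs) are smaller. The IRGM proteins among them, which include Igtp, sit on host membranes and keep the effector IRGs from acting there. Both families are induced in many cell types, epithelial cells and macrophages included, when interferon-gamma signals through its receptor and the JAK kinases, which also induces the transcription factor IRF1. The gamma-activated site (GAS) is a DNA element that responds to interferon-gamma, and IRF1 and its relatives bind the interferon-stimulated response element (ISRE). Interferon-gamma itself is made mainly by T cells and natural killer cells.

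The promoters of these genes were searched for the sites through which interferon signals act. Of the 10 genes, 7 had an entry among RefSeq promoters of build GRCm38.p6, each spanning 250 bases before to 50 bases after a start that RefSeq gives. That start need not be the outer end of the GENCODE gene span given with each gene. For Gbp2, Gbp3, Gbp5, Irgm1 and Irgm2 it lies inside the span. Gbp4, Gbp6 and Gbp9 had none. The ISRE searched was GAAA, any 2 bases and GAAA again, on both strands, so that it can also read TTTC, any 2 bases and TTTC. The GAS searched was TTC, any 3 bases and GAA, which reads the same on both strands. Below, 5 promoters follow whole because they include the genes with the smallest and largest differences among the 7. The windows of Gbp3 and Gbp7 show only their motifs with 15 bases to each side. Capitals mark ISRE and GAS matches, and overlapping matches run together.
Gbp2, chr3:142620413-142620712, plus strand: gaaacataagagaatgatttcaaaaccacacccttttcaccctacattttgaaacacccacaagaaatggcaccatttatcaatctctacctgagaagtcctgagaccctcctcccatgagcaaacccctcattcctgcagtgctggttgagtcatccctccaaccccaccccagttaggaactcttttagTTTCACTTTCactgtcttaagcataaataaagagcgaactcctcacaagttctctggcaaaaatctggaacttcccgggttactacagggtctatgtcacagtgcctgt
Gbp5, chr3:142496684-142496983, plus strand: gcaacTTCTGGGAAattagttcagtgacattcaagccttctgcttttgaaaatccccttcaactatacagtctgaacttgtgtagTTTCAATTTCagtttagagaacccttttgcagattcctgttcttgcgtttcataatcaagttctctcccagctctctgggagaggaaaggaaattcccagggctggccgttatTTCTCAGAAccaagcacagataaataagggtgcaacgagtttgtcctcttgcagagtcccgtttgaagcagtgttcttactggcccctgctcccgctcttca
Irgm1, chr11:48871371-48871670, minus strand: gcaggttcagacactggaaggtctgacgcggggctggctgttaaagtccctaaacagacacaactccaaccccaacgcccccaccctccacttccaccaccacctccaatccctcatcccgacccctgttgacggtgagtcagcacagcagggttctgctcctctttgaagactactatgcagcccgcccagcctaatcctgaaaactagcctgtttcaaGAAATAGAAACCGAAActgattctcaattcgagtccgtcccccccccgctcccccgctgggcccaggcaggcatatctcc
Igtp, chr11:58199306-58199605, plus strand: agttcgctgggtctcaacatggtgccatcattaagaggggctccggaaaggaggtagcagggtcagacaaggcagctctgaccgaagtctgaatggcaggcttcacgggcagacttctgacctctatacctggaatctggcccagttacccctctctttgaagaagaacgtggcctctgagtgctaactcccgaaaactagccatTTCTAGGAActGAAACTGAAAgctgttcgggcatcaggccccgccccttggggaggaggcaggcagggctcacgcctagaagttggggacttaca
Irgm2, chr11:58214727-58215026, plus strand: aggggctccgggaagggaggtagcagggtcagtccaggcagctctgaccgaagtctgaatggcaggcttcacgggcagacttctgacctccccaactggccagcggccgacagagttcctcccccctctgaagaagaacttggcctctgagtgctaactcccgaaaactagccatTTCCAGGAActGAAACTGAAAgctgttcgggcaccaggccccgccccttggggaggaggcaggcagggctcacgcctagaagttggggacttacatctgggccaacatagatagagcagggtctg
Gbp3, chr3:142559984-142560029, plus strand: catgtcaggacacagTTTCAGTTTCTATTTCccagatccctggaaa
Gbp7, chr3:142530215-142530307, plus strand: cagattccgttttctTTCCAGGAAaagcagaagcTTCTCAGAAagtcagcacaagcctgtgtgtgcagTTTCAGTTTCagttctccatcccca

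An ISRE match was present in a promoter of all 7 genes, against 3.44% of 32851 RefSeq mouse promoters. Gbp3 has a second RefSeq promoter entry, which held neither motif. A GAS match was present in 4 of the 7 genes (Gbp5, Gbp7, Igtp and Irgm2), against 8.30% of all promoters. Both motifs stood together in those 4, against 0.454% of all promoters. The ISRE lay close to the start in Gbp2 (first base 59 bases before it), Gbp7 (53), Gbp3 (45 and 39), Igtp (34) and Irgm1 (30 and 24). In Gbp5 it lay farther out, at 165 bases. Igtp and Irgm2, which neighbour each other on chromosome 11, share an uninterrupted stretch of 61 bases, and in each the GAS is followed by the ISRE GAAACTGAAA after a gap of a pair of bases. These are matches to letters and not measured binding.

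**Figure D1:**
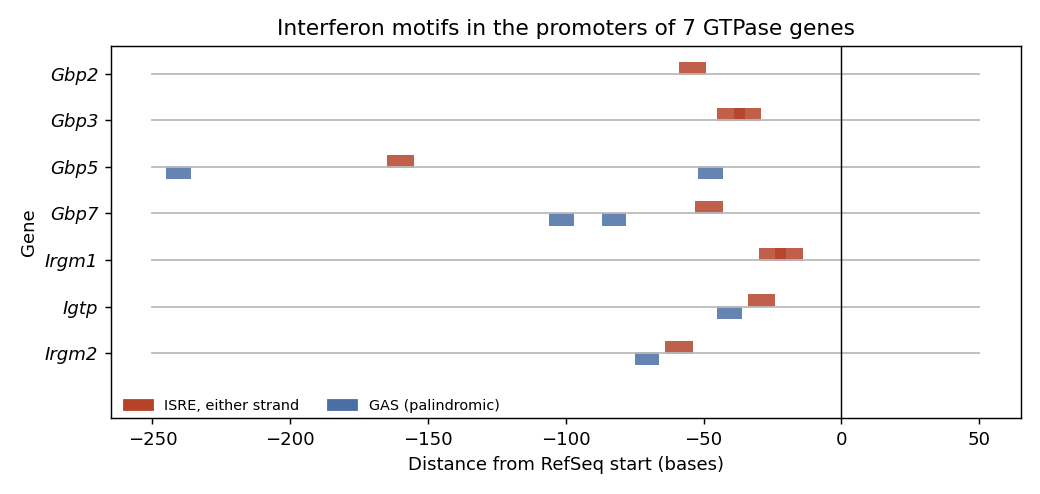
Positions of ISRE matches (red, above each line) and GAS matches (blue, below each line) in the promoters of 7 GTPase genes, by distance from the RefSeq start in bases. All 7 promoters hold an ISRE match, and those of Gbp5, Gbp7, Igtp and Irgm2 also hold a GAS match.

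Among the GBPs of chromosome 3, Gbp2, a GBP recruited to Toxoplasma vacuoles (mm10 chromosome 3, 142620602 to 142638008, plus strand), stood at 61.5 TPM in the C3G tumor and 132 TPM in the DMSO tumor. TPM is the abundance computed by the authors, scaled by gene length and by the total of the library. These values rest on 850 and 1438 reads, and Gbp2 was 2.14-fold lower with C3G (1.97 to 2.34). Each range in parentheses after a fold or ratio is an exact 95% interval for counting error alone. With 1 library per group there is no replicate error, no test was made, and a difference between the treatments cannot be told apart from a difference between mice.

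Gbp3, another chromosome 3 GBP (142560026 to 142573209, plus strand), stood at 78.3 TPM with C3G and 128 TPM with DMSO (1405 and 1819 reads), 1.64-fold lower (1.53 to 1.76). Gbp7 (142530342 to 142550149, plus strand), which in mouse macrophages supports assembly of the phagocyte oxidase, stood at 31.1 TPM with C3G and 52.4 TPM with DMSO (960 and 1275 reads), 1.68-fold lower (1.55 to 1.83). The folds of these neighbours were close to each other and smaller than that of Gbp2. Gbp5 (142493978 to 142522344, plus strand), known for promoting NLRP3 inflammasome assembly, was scarce, at 1.97 TPM with C3G and 2.29 TPM with DMSO (72 and 66 reads). Its ratio of C3G to DMSO, 0.861 (0.608 to 1.22), had an interval that included 1.

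The GBPs of chromosome 5 were less abundant and differed among themselves. Gbp9 (105077630 to 105139539, minus strand) stood at 3.76 TPM with C3G and 10.9 TPM with DMSO (107 and 244 reads). It was 2.89-fold lower (2.29 to 3.66), the lowest ratio of the 10 genes. Gbp6 (105270702 to 105293698, minus strand) stood at 2.87 TPM with C3G and 5.85 TPM with DMSO (94 and 151 reads), 2.04-fold lower (1.56 to 2.66). Gbp4 (105115767 to 105139586, minus strand), whose span overlaps that of Gbp9, was at 3.16 TPM with C3G and 3.08 TPM with DMSO (130 and 100 reads). Its ratio of 1.03 (0.784 to 1.34) included 1 and lay wholly above the interval of Gbp9, which was 0.273 to 0.436.

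All 3 IRGM genes were lower in the C3G tumor, by different amounts. Igtp (chromosome 11, 58199556 to 58207591, plus strand) encodes the IRGM protein of the endoplasmic reticulum. It stood at 73.2 TPM with C3G and 140 TPM with DMSO (813 and 1231 reads), 1.92-fold lower (1.75 to 2.10). Irgm2 (58199618 to 58222782, plus strand), a Golgi-associated IRGM, stood at 44.0 TPM with C3G and 69.8 TPM with DMSO (893 and 1117 reads), 1.59-fold lower (1.45 to 1.73). Irgm1 (48861968 to 48871683, minus strand), whose protein is found on Golgi and lysosomal membranes, stood at 59.2 TPM with C3G and 76.1 TPM with DMSO (1889 and 1916 reads). At 1.29-fold lower (1.21 to 1.37), Irgm1 had the smallest difference among the 8 genes whose interval excluded 1, and its interval did not overlap those of Igtp and Irgm2.

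Seen together, 9 of the 10 genes had a log2 ratio of C3G to DMSO below 0, where 41.1% of 17468 genes with a mean of at least 1 TPM did. Centred on genes with a mean of at least 10 TPM, a shift of 0.12, all 10 were below 0, Gbp4 by the shift alone, and so were 51.5% of the 17468 genes. The ratio was taken after adding 1 TPM to each value, which draws scarce genes towards 0. Its median over the 10 genes was -0.72, against 0.10 over those 17468 genes. Calls by size were limited to genes that reached 5 TPM in either library, 8 of these 10, and required the log2 ratio to pass the stated fold. At 2-fold, Gbp2 and Gbp9 were called, 2 of 8, where 4.30% of 12780 genes were. At 1.5-fold, 7 of the 8 were called, all but Irgm1, where 9.15% of 12780 genes were. Gbp4 and Gbp5 stayed under 5 TPM in both libraries and could not be called.

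**Figure D2:**
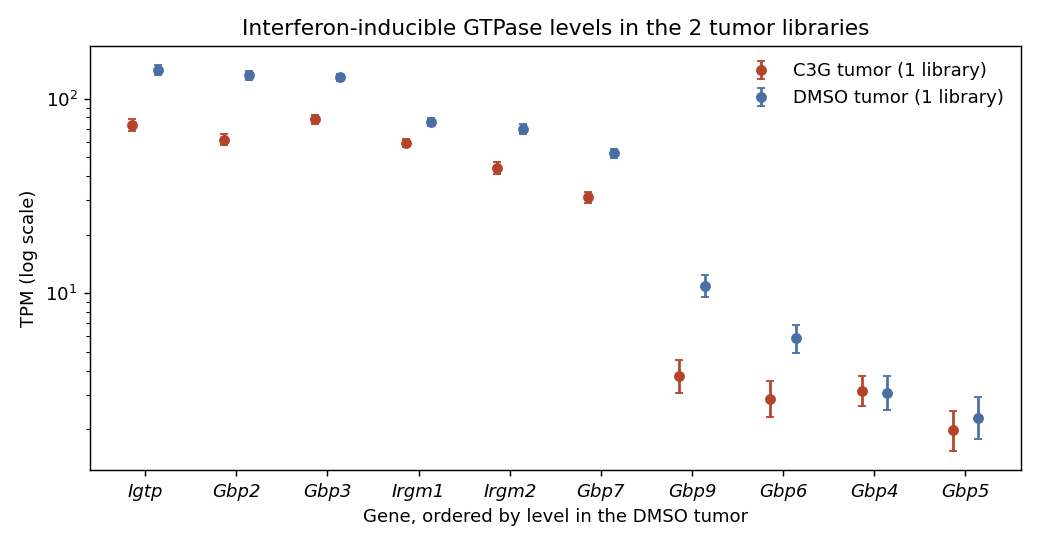
TPM of each gene (log scale) in the C3G tumor (red) and the DMSO tumor (blue), 1 library each, with bars for exact 95% Poisson counting intervals. The 6 most abundant genes lie between 31.1 and 78.3 TPM with C3G and between 52.4 and 140 TPM with DMSO, and the points of Gbp4 and of Gbp5 overlap between the libraries.

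Summed over the 10 genes, the level was 359 TPM with C3G and 621 TPM with DMSO, a ratio of 0.578. The 7 GBP genes summed to 183 TPM with C3G and 335 TPM with DMSO, and the 3 IRGM genes to 176 TPM with C3G and 286 TPM with DMSO. The GBPs of chromosome 3 made up most of the GBP sum, at 173 TPM with C3G and 315 TPM with DMSO. Those of chromosome 5 summed to 9.79 TPM with C3G and 19.8 TPM with DMSO. In bulk tumor RNA, fewer cells of a type and less RNA per cell cannot be told apart.

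The order of the levels changed at the top. In the C3G tumor Gbp3 stood first and Igtp next, with a ratio between their levels of 1.07 (0.981 to 1.17). Gbp2 and Irgm1 followed, 1.04 apart (0.957 to 1.13), then Irgm2 and Gbp7. In the DMSO tumor the order was Igtp, Gbp2 and Gbp3, and neighbours among these differed by no more than counting error, at 1.07 (0.986 to 1.15) and 1.03 (0.957 to 1.10). Irgm1, Irgm2 and Gbp7 came after them there. The 4 scarce genes stood last in both libraries, with Gbp9 above the others and Gbp5 at the end. In the DMSO tumor counting error did not separate Gbp4 from Gbp5, 1.34 apart (0.974 to 1.86). In the C3G tumor counting error did not separate Gbp9 from Gbp4 or Gbp4 from Gbp6, but Gbp9 was 1.86 times Gbp6 (1.51 to 2.29) in the DMSO tumor.

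Some of these reads could belong to related genes. Of the 50-base stretches in the transcripts of Gbp6, 70.7% also occur in transcripts of other genes, mainly the overlapping gene model Gm43302 and Gbp10. Gm43302 had 0 assigned reads in both libraries, and Gbp10 had 1 with C3G and 0 with DMSO. How reads shared by these genes were assigned is not given, so the levels of all 3 are uncertain. The share was 12.7% for Gbp7, mostly with the processed pseudogene Gm43802 inside it, and 11.8% for Igtp, all with Irgm2, whose exons overlap those of Igtp over 162 bases. For the other 7 genes it lay between 0.379% (Irgm1) and 8.05% (Gbp9). The kit does not mark the strand, and Gbp2 overlaps an antisense microRNA gene over 24 bases.

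Most other interferon-inducible GTPases of these families that could be measured were lower too. Of 14 further genes, 9 had a mean of at least 1 TPM, all 9 had a log2 ratio below 0, and their median was -0.72. The ratio's interval lay below 1 for 8 of the 9. All 5 with a higher TPM of at least 5 were called at 1.5-fold (9.15% of all genes were) and 2 of them at 2-fold (4.30%). Gm12250, annotated as a processed pseudogene and known as the effector IRG gene Irgb10, stood at 5.14 TPM with C3G and 23.4 TPM with DMSO (36 and 129 reads), 4.54-fold lower (3.12 to 6.77). Gm4951 stood at 15.9 TPM with C3G and 46.3 TPM with DMSO, 2.91-fold lower (2.49 to 3.41). The most abundant of them, Iigp1, an effector IRG that coats parasite vacuoles, stood at 73.4 TPM with C3G and 120 TPM with DMSO, 1.63-fold lower (1.54 to 1.72). Ifi47 stood at 43.8 TPM with C3G and 72.7 TPM with DMSO, and Gbp8 at 2.96 TPM with C3G and 5.49 TPM with DMSO.

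The near-identical pair Tgtp1 and Tgtp2, whose reads cannot be split with certainty, stood at 1.70 and 1.61 TPM with C3G and at 3.89 and 3.30 TPM with DMSO. F830016B08Rik stood at 2.04 TPM with C3G and 3.29 TPM with DMSO, and 9930111J21Rik2 at 1.92 TPM with C3G and 2.10 TPM with DMSO, a ratio of 0.912 (0.644 to 1.29). The remaining genes were below a mean of 1 TPM. They were Gbp2b (4 reads with C3G, 9 with DMSO), Gbp10, Gbp11 (6 with C3G, 3 with DMSO), 9930111J21Rik1 (14 with C3G, 4 with DMSO) and Gvin1 (11 with C3G, 8 with DMSO).

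**Figure D3:**
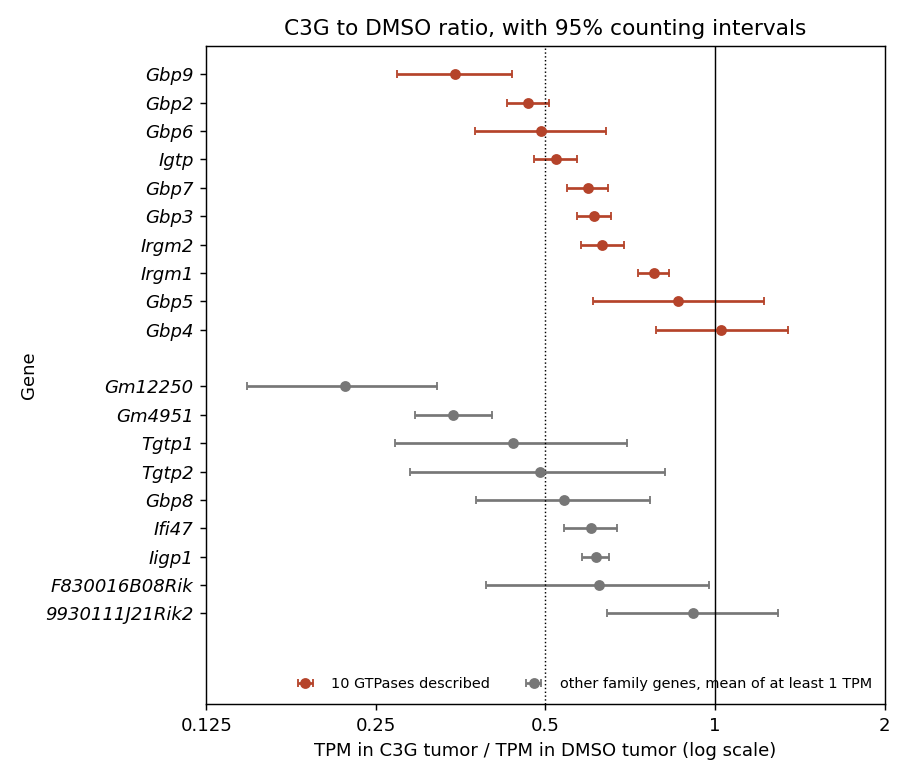
Ratio of TPM in the C3G tumor to TPM in the DMSO tumor (log scale) for the 10 GTPase genes (red) and 9 other genes of the families (grey), with exact 95% counting intervals. The solid line marks equal levels and the dotted line a ratio of 0.5; the intervals of Gbp4, Gbp5 and 9930111J21Rik2 include 1.

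Genes of the receptor and its signal mostly differed little and to both sides of even, though several differed beyond counting error. Ifng was at the limit of detection. Ifng, which encodes interferon-gamma, had 0 reads with C3G and 6 with DMSO (1.07 TPM). A floor of 3 reads per library stood for 0.422 TPM with C3G. With the 6 DMSO reads taken as exact, Ifng in the DMSO tumor was at 2.53 times that floor, which is not a measured fold. The counting intervals of its levels overlapped, at 0 to 0.518 TPM with C3G and 0.392 to 2.33 TPM with DMSO. The receptor chain genes Ifngr1 and Ifngr2 stood at 58.5 and 54.0 TPM with C3G and at 55.7 and 54.0 TPM with DMSO. Irf1 stood at 70.0 TPM with C3G and 79.3 TPM with DMSO, and the kinase gene Jak2 at 28.8 TPM with C3G and 24.3 TPM with DMSO. Batf2, an interferon-gamma responsive transcription factor gene, was 6.13-fold lower (3.25 to 12.5), on 12 reads with C3G and 58 with DMSO. Of the 8 genes of this receptor and signal list, Batf2 was the 1 called lower, at 2-fold (4.30% of all genes were) and at 1.5-fold (9.15%). The median log2 ratio of the list was -0.09. Ifngr1, Ifngr2, Irf1 and Ifng were named for their roles with their values known.

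Of the cytokines that induce interferon-gamma, Il18 stood at 11.5 TPM with C3G and 15.9 TPM with DMSO, and Il15 at 9.58 TPM with C3G and 11.0 TPM with DMSO. Both intervals of their ratios included 1. Il12a, which encodes a subunit of interleukin-12, was scarce but higher, at 4.07 TPM with C3G and 1.08 TPM with DMSO (38 and 8 reads), a ratio of 3.75 (1.72 to 9.30). Il27 had 9 reads with C3G and 4 with DMSO. Over the 4 genes of this list with a mean of at least 1 TPM the median log2 ratio was 0.13. None of 7 inhibitor genes of the pathway that could be called was called at 1.5-fold in either direction (9.15% of all genes were lower and 11.5% higher). Socs1, too scarce to be called, stood at 1.38 TPM with C3G and 2.54 TPM with DMSO (22 and 32 reads), 1.84-fold lower (1.04 to 3.33). The median over all 8 was -0.13, and the ratio's interval lay below 1 for 4 of the 8, above 1 for 2 and included 1 for 2. Among them Socs3 stood at 88.4 TPM with C3G and 74.0 TPM with DMSO, the phosphatase gene Ptpn2 at 60.0 TPM with C3G and 75.6 TPM with DMSO, and Usp18, which restrains type I interferon signalling, at 41.6 TPM with C3G and 54.9 TPM with DMSO. Ptpn11 stood at 29.6 TPM with C3G and 24.97 TPM with DMSO.

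Most other listed targets of interferon-gamma were lower in the C3G tumor too. Of 19 listed, 17 had a mean of at least 1 TPM, all 17 were below 0, and the median log2 ratio was -0.63. The ratio's interval lay below 1 for 13 of the 17 and included 1 for Wars, Fcgr1, Cd274 and Cxcl10, at 0.956, 0.920, 0.883 and 0.745. Nos2, the inducible nitric oxide synthase gene, had a mean below 1 TPM and was 4.89-fold higher (1.89 to 16.1), on 31 reads with C3G and 5 with DMSO. At 2-fold 4 of 17 were called and at 1.5-fold 9 of 17, the same limits that called 4.30% and 9.15% of all genes. The chemokine gene Cxcl9 stood at 5.55 TPM with C3G and 13.8 TPM with DMSO, 2.49-fold lower (1.93 to 3.24). The MHC class II invariant chain gene Cd74 was 2.32-fold lower (2.25 to 2.40), the immunoproteasome subunit gene Psmb8 2.14-fold (1.97 to 2.31) and the proteasome activator gene Psme1 2.06-fold (1.95 to 2.16). Psme1 stood at 199 TPM with C3G and 410 TPM with DMSO.

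Most genes best known from type I interferon were lower as well. Of 20, 19 were below 0 (41.1% of all genes were) and the median was -0.48. At 2-fold 3 were called lower (4.30% of all genes) and at 1.5-fold 8 (9.15%), which left 12 uncalled. Irf9 and Ifih1, with ratios of 0.973 and 1.02, had intervals that included 1. Oas3, a sensor of double-stranded RNA, was 2.89-fold lower (2.36 to 3.55), Ifit3 2.32-fold (2.17 to 2.48), Oasl2 2.14-fold (2.04 to 2.24) and Oas2 1.78-fold (1.69 to 1.88). Of the 4 type I receptor and kinase genes 3 were above 0. Ifnar1 stood at 30.0 TPM with C3G and 20.6 TPM with DMSO, Tyk2 at 30.1 TPM with C3G and 21.7 TPM with DMSO, Jak1 at 70.9 TPM with C3G and 63.1 TPM with DMSO, and Ifnar2 at 40.6 TPM with C3G and 49.0 TPM with DMSO.

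Genes for proteins that work with the GTPases on vacuoles lay to both sides of 0. Of 22 genes for ubiquitin ligases, the autophagy conjugation system, inflammasomes and prenylation, 11 were below 0 and 11 above, with a median of -0.01. Of the 21 that could be called, 1 was lower at 1.5-fold (9.15% of all genes were), Casp4, the receptor for cytosolic lipopolysaccharide. It stood at 17.7 TPM with C3G and 28.5 TPM with DMSO, 1.62-fold lower (1.41 to 1.86). Aim2, a sensor of cytosolic DNA, stood at 4.003 TPM with C3G and 5.995 TPM with DMSO. The autophagy genes Map1lc3a and Atg5, neither of them called, stood at 284 and 72.8 TPM with C3G and 191 and 55.7 TPM with DMSO.

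Among genes with a promoter entry and a mean of at least 1 TPM, those with an ISRE match lay somewhat lower than the rest. The median log2 ratio was 0.03 over 424 genes with an ISRE match in a promoter, the 10 GTPases left out, and 0.14 over 10680 genes without one. The shares below 0 were 47.4% and 35.9%. By list, the ISRE was matched in 5 of 7 further family genes with a promoter entry, 9 of 16 type I interferon-stimulated genes, 2 of 12 other interferon-gamma targets and 0 of 6 receptor and signal genes. The GBP and IRGM genes described here also differed among themselves with the same motif present. Gbp2, with 1 ISRE match and no GAS match, had a ratio of 0.466. Igtp, Gbp7, Gbp3 and Irgm2 followed at 0.521, 0.594, 0.609 and 0.631, then Irgm1 at 0.778 and Gbp5 at 0.861. The interval of Gbp5 (0.608 to 1.22) included 1. The 424 genes with an ISRE match include interferon-stimulated genes described above, and a part of the motif in these differences was not tested.

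Markers of several cell types also differed between the 2 libraries, and their part in the GTPase difference was not tested. The 12 T cell markers summed to 16.4 TPM with C3G and 43.0 TPM with DMSO, and all 8 with a mean of at least 1 TPM were below 0 (41.1% of all genes were). The T cell adhesion gene Cd2 had 11 reads with C3G and 53 with DMSO, and Lck had 86 with C3G and 92 with DMSO. The ratio's interval lay below 1 for 7 of the 8 and included 1 for Lck. The 9 natural killer and cytotoxic cell markers summed to 25.5 TPM with C3G and 59.8 TPM with DMSO, and 6 of 6 with a mean of at least 1 TPM were below 0. The ratio's interval lay below 1 for 3 of the 6 and included 1 for 3. Reads with C3G and DMSO were 20 and 52 for the granule gene Nkg7, 14 and 48 for Xcl1, and 64 and 57 for Gzmb, whose interval included 1. None of these markers was at 0 in either library. The 9 dendritic cell markers, dominated by the class II genes H2-Aa and H2-Ab1 that interferon-gamma also induces, summed to 428 TPM with C3G and 857 TPM with DMSO, and 7 of 7 with that mean were below 0.

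Macrophages express these GTPases strongly, and their markers were closer to even. The 12 markers summed to 2093 TPM with C3G and 2286 TPM with DMSO, with 7 below 0 and a median of -0.14. The ratio's interval lay below 1 for 7 of the 12, above 1 for 2 and included 1 for 3. Aif1, at 44.4 TPM with C3G and 70.5 TPM with DMSO, was the 1 called lower at 1.5-fold (9.15% of all genes were). Mertk, not called, was 1.33-fold higher (1.10 to 1.61). Of 12 luminal epithelial markers 7 were below 0, the median was -0.08, and all were present, which fits the labelled tissue. The 12 summed to 7384 TPM with C3G and 9382 TPM with DMSO. At 1.5-fold 3 were called lower (9.15% of all genes were) and 1 higher (11.5%). Krt19, Foxa1 and Krt18 were lower by 2.75-fold (2.63 to 2.89), 2.56-fold (2.08 to 3.17) and 1.60-fold (1.56 to 1.63). The stem cell marker Prom1 was 1.69-fold higher (1.56 to 1.82) and the splicing regulator gene Esrp1 1.39-fold higher (1.33 to 1.45), among 5 of the 12 above 0. Fibroblast markers had a median of -0.04. Endothelial and fat cell markers were higher, with medians of 1.06 (10 of 10 above 0, summing to 111 TPM with C3G and 45.0 TPM with DMSO) and 2.27 (10 of 10 above 0, 1504 TPM with C3G and 360 TPM with DMSO).

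**Figure D4:**
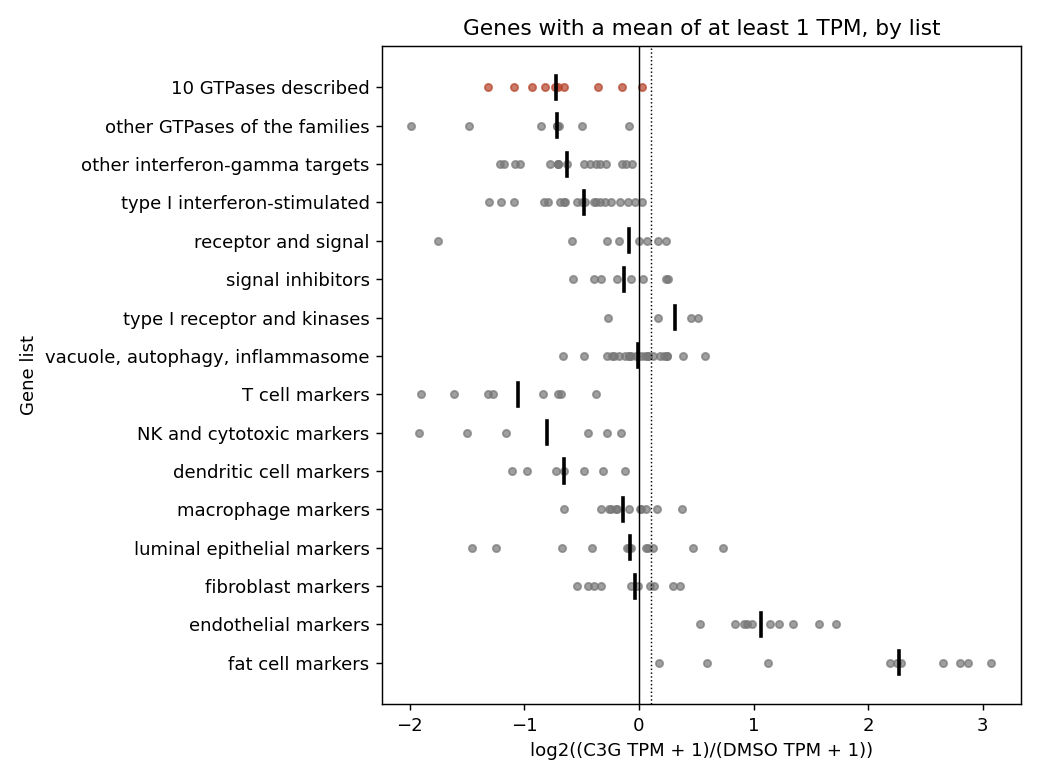
Log2 ratio of C3G to DMSO for each gene with a mean of at least 1 TPM, by list; points are genes, thick black ticks are list medians, the solid line marks 0 and the dotted line the median of all 17468 such genes, 0.10. The 10 GTPases (red) have a median of -0.72, close to that of their family, with T cell markers at -1.06 and fat cell markers at 2.27.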

How the data were processed

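Per the labels' protocols, RNeasy Plus kits were used for extraction and the TruSeq RNA kit, version 2, which does not mark the strand, for the libraries. The submitters' processing notes name FastQC, MultiQC, Trimmomatic 0.38, featureCounts 2.0.0 and build mm10. The aligner and the treatment of reads that match several genes are not given in the sources used here. The deposited values are TPM, computed by the authors for 55536 genes, and each library sums to 1000000.

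All 55536 identifiers matched GENCODE M21, the source of symbols, positions and exon-union lengths. Multiplied by exon-union length, 100% of the values above 0 came out as whole numbers of 1 unit per library (tolerance 0.01 of a unit). Taken as reads or read pairs, this gave 16081110 reads for C3G and 12192275 for DMSO. Counting intervals rest on these reads, which carry no molecular identifiers, and cover counting error only.

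Log2 ratios of C3G over DMSO were computed from TPM with a pseudocount of 1, and plain folds without one. No test was possible with 1 library per group. The procedure was tested on simulated data that held counting error only, so that test cannot speak to differences between mice. The gene members, lists and size limits were chosen with earlier results of these data known. The rule for naming took all members, all further GTPases listed, and up to 4 genes of each other list. These were the farthest from 0 among those that reached 5 TPM in either library. For T cell, natural killer, dendritic and macrophage markers not all of these are shown. For fibroblast, endothelial and fat cell markers none of them are. Il12a, Il27, Nos2, Wars, Fcgr1, Cd274, Cxcl10, Irf9, Ifih1, Esrp1, Socs1 and Gzmb were named after their values were seen. A member of the receptor and signal list is not reported here. Alternatives changed pseudocount, filter, scaling or members. Python 3.11.15, numpy 2.4.6, scipy 1.17.1 and pandas 2.3.3 were used.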

Additional observations from a re-analysis of the deposited data

How the results depend on the processing

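The median log2 ratio of the 10 GTPases stayed below 0 under all 8 alternatives, between -0.87 and -0.64. It was -0.84 with ratios centred on genes with a mean of at least 10 TPM, and -0.87 with length and GC trends removed. With that centring 5.19% of all genes were called lower at 2-fold and 12.1% at 1.5-fold. Shares in parentheses are those of all genes called under the same setting. The count lower at 2-fold was 1 of 8 with a pseudocount of 5 (2.42%), in place of 2 of 8 (4.30%). With a stricter filter on low values it was 1 of 6 (3.35%). It was 3 of 8 with a pseudocount of 0.1 (4.95%), with centring and with trends removed (3.99%). The count lower at 1.5-fold was 6 of 8 with a pseudocount of 5 (6.46%), in place of 7 of 8 (9.15%). It was 4 of 5 (9.15%), by construction of the smaller list, when 3 genes were left out. These 3 share over 10% of their 50-base stretches with other genes. Of 50 single-gene values under the alternatives, 9 moved beyond counting error and none of the genes whose interval excluded 1 changed sign. Gbp4, whose interval included 1, fell below 0, to -0.09 when centred and to -0.20 with trends removed. Gbp5, with 66 to 72 reads, and Gbp4, with 100 to 130, limit what can be said of scarce members. No paired analysis was possible because each group has 1 library.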
